A study of Mus musculus with 4 samples.

Results

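The genes described are the factors that start, extend and end protein synthesis and the enzymes that load amino acids onto tRNA, measured in cultured mouse B cells. They were chosen by symbol: initiation factors (Eif), elongation factors (Eef1 and Eef2), release factors (Etf1, Gspt) and aminoacyl-tRNA synthetases. Of 126 symbols of the mouse gene table that match this pattern, 54 had a probe with a readable gene number on the array, through 70 probes. Of these 54 genes, 47 were detected (detection p under 0.05) on at least 2 of the 4 arrays, out of 3983 genes with a symbol and 15215 features tested in all. The other 7, namely Dars, Eef1a2, Eif2s3y, Eif4a2, Eif5b, Gspt2 and Wars2, were detected on 0 arrays and have no further values here. Of the 47 genes, 45 were detected on all 4 arrays, Iars on 3 and Eif2s1 on 2.

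GFP-positive cells were set against GFP-negative cells, with 2 arrays in each group. The cell type label is pre-plasmablasts for the GFP-positive and B cell blasts for the GFP-negative cells, while the sample titles call both groups B cell blasts. All 4 arrays carry RNA of C57BL/6 B cells labelled prdm1-/-, without Blimp-1, the transcription factor that drives plasma cell formation. Both groups grew with CD40 ligand, IL-4 and IL-5 (10 U/mL of each cytokine) and were separated on day 4 by GFP. The question is what sets cells arrested before the plasmablast stage apart from blasts of one genotype and culture. Neither the locus of GFP nor the origin of the replicates (separate mice or cultures) is in the labels, so p-values cover the spread of these arrays alone, and that spread may be technical.

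A protein is begun when the ternary complex of eIF2, GTP and initiator tRNA joins the small ribosomal subunit, with eIF3 as a scaffold, and the eIF4 factors bring it to the capped end of an mRNA. Elongation factors then deliver each charged tRNA and move the ribosome on, and release factors end the chain at a stop codon. Aminoacyl-tRNA synthetases supply the charged tRNA, with separate nuclear genes for many of the mitochondrial enzymes. Plasma cells are known for very high antibody synthesis, and several synthetase genes are known targets of ATF4, a transcription factor that the phosphorylation of eIF2 brings into action.

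Values are the authors' normalized intensities, on a scale close to log2 that runs from 7.71 to 16.07, with a median of 8.09 on every array. Probes without detection on any array filled the band from 7.88 to 8.16 (central 95% of their values), so differences near 8 are compressed. The labelled cell state was checked on its markers. Of 9 plasma cell markers, 3 could be tested. Xbp1, a transcription factor of secretory cells, read 14.61 and 14.84 in GFP-positive cells, against 13.71 and 13.98 in GFP-negative cells (adjusted p = 0.0161 in limma, and 0.0601 without GFP-positive replicate 2). Ell2, an elongation factor of transcription, read 9.30 and 8.87 in GFP-positive cells, against 8.42 and 8.34 in GFP-negative cells (adjusted p = 0.0443 in limma), and its call was kept without GFP-positive replicate 2 but lost without each of the other arrays (adjusted p = 0.0795 to 0.135). Jchain, the joining chain of secreted antibody, was detected on 2 arrays and read 9.84 and 9.34 in GFP-positive cells, against 8.16 and 7.95 in GFP-negative cells, where it lay in the band of undetected probes, so its test is not used. With Jchain included, the summed log2 level of the 3 was 33.74 and 33.05 in GFP-positive cells, against 30.29 and 30.27 in GFP-negative cells. That sum is not used either, because Jchain is part of it. Of 9 B-cell markers only Ebf1, a B-lineage factor, could be tested, and it read 10.42 and 10.43 in GFP-positive cells, against 11.13 and 11.15 in GFP-negative cells (adjusted p = 0.00562 in limma). Of the markers of other cells, Cd247 of T cells read between 8.15 and 8.22 on the 4 arrays. Itgam of myeloid cells, detected on 2 arrays, read 8.30 and 8.28 in GFP-positive cells, against 7.96 and 7.98 in GFP-negative cells. The GFP-negative readings lay in the band of undetected probes, so the Itgam test is not used. Cd68 of myeloid cells read 9.16 and 9.02 in GFP-positive cells, against 8.87 and 8.65 in GFP-negative cells. Its change was +0.33 (adjusted p = 0.128 in limma). Cd247 and Cd68 were not called, nor were Zbtb46 of dendritic cells and Hbb-b1 and Hbb-b2 of red blood cells, and no NK-cell marker was tested. The part of other cells in the results below was not tested.

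Of the 47 translation genes, 3 were higher in GFP-positive cells and 0 lower at an adjusted p under 0.05, the threshold for a call (limma across 15215 features). They were Tars and Sars, the cytosolic synthetases for threonine and serine, and Eif4e3, a cap-binding protein of the eIF4E family. In RNA of whole populations, a change in the share of cells that express a gene and a change in its RNA per cell cannot be told apart. Over all features, 11.1% were called, 5.83% as higher and 5.29% as lower, so the 6.38% of these genes that rose lies near that background. At an unadjusted p under 0.05, 6 of the 47 were higher and 6 lower, which is 12.8% each, beside 12.1% and 14.6% of all features. No gene of the 47 was both called and changed by 1.5-fold on this scale, as 6.76% of all features were. The median change was +0.05 log2 units, against -0.02 over all features, and single genes ranged from -0.55 to +0.69. The median size of a change, without its sign, was 0.13 log2 units for these genes and 0.13 for all features. These genes were brighter, with a median level of 10.26 against 8.92 for all features. Dim readings are compressed, so the 2 sizes are not like for like.

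**Figure D1:**
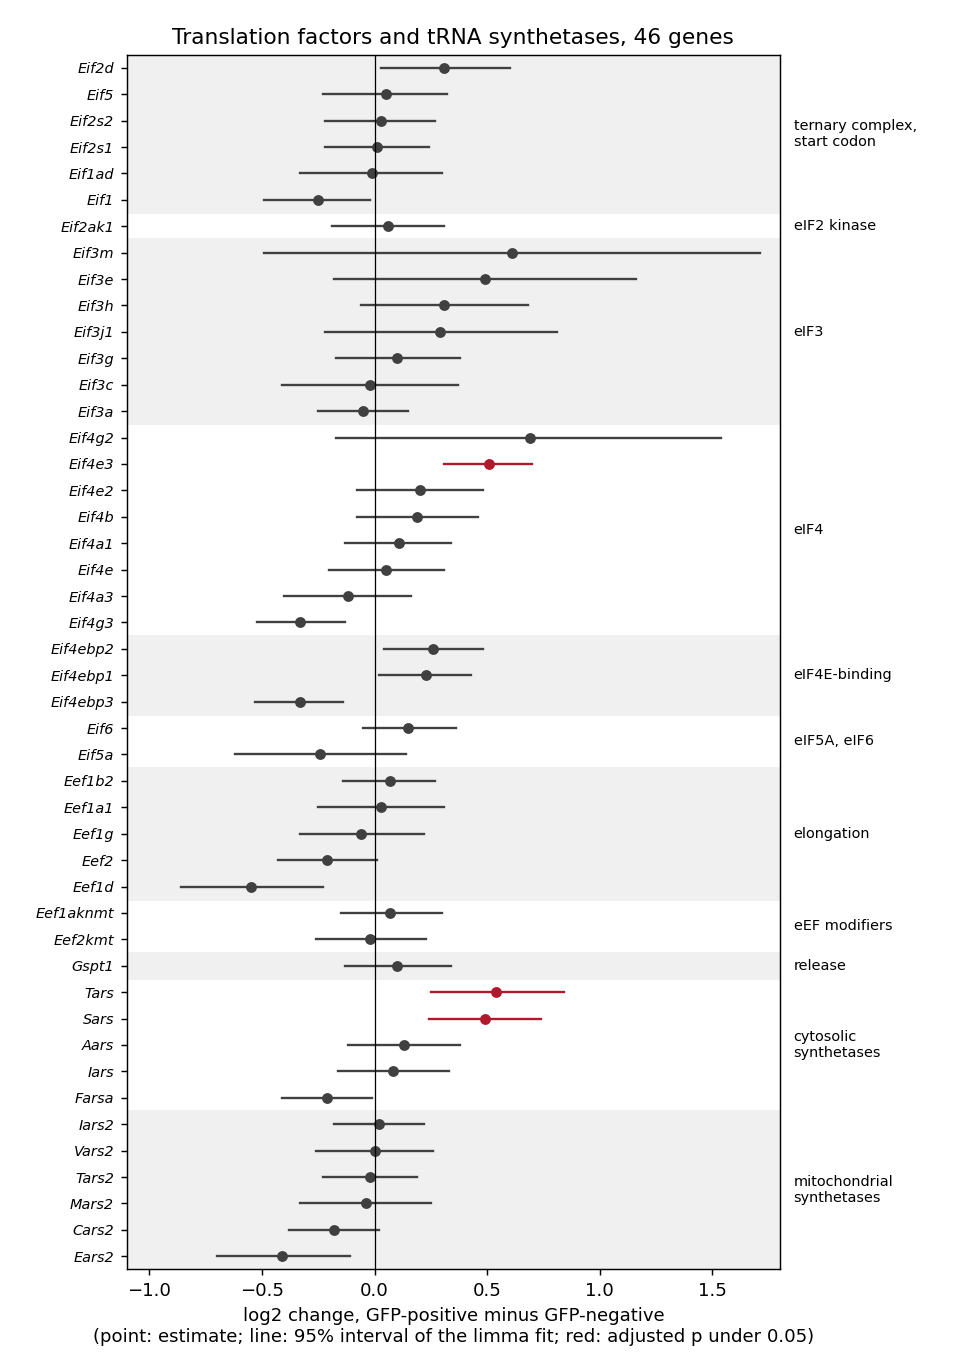
Log2 change of 46 of the 47 detected translation genes, GFP-positive minus GFP-negative, grouped by role, with the 95% interval of the limma fit; red marks an adjusted p under 0.05. Tars, Sars and Eif4e3 are red, and the widest intervals belong to Eif3m and Eif4g2.

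Among the cytosolic synthetases, 2 of 5 tested genes rose and 3 were not called. Tars, the threonyl-tRNA synthetase, read 10.35 and 10.11 in GFP-positive cells, against 9.76 and 9.61 in GFP-negative cells. Both GFP-positive arrays lay above both GFP-negative ones, and Tars rose by 0.54 log2 units (SE 0.12, 95% interval 0.25 to 0.84, adjusted p = 0.0443). Sars, the seryl-tRNA synthetase, read 11.20 and 11.40 in GFP-positive cells, against 10.77 and 10.86 in GFP-negative cells. Again the groups did not overlap, and Sars rose by 0.49 (SE 0.10, 95% interval 0.24 to 0.74, adjusted p = 0.0387). Both calls sit close to the threshold and rest on all 4 arrays. When 1 array was left out, the adjusted p lay between 0.0509 and 0.164 for Tars and between 0.0577 and 0.122 for Sars, with changes of 0.42 to 0.67 and 0.39 to 0.58.

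The other cytosolic synthetases had smaller differences of both signs. Aars, for alanine, read 10.71 and 10.93 in GFP-positive cells, against 10.68 and 10.70 in GFP-negative cells, a change of +0.13 (95% interval -0.12 to 0.38, adjusted p = 0.49). A dimmer Aars probe had the opposite sign, with -0.19. Farsa, the alpha subunit of the phenylalanine enzyme, read 10.07 and 9.98 in GFP-positive cells, against 10.24 and 10.23 in GFP-negative cells. Its groups did not overlap, with a change of -0.21 (95% interval -0.41 to -0.01, adjusted p = 0.176) and -0.13 at its dimmer probe. Iars, for isoleucine, was at the dim end of the scale, with readings from 8.12 to 8.36 and a change of +0.08 (adjusted p = 0.668).

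Promoters of cytosolic synthetases are shown because these enzymes include known ATF4 and MYC targets. Those of Tars, Sars, Aars and Iars were picked after their values were seen. They are the 4 of 5 tested genes with a positive change, and Farsa, with a negative one, was left out. Windows of 250 bases before to 50 after the gene's start were taken from a table made from RefSeq (GRCm38.p6), in which 37 of the 47 genes were matched; Eif4e3 was not among them. Below, 150 bases before and 25 after the first transcribed base are given 5′ to 3′ on the gene's strand, and capitals mark a match on either strand to TGATGNAA, a core of elements bound by ATF4 with C/EBP factors, or to CACGTG, the E-box bound by MYC and USF proteins.
Tars, chr15:11399634-11399808, minus strand: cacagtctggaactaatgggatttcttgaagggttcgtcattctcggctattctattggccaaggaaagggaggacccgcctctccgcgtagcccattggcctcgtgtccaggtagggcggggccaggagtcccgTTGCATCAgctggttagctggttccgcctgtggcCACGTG
Sars, chr3:108445235-108445409, minus strand: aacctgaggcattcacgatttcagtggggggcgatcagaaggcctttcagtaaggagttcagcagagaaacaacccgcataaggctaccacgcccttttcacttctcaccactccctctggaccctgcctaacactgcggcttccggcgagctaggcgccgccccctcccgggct
Aars, chr8:111033692-111033866, plus strand: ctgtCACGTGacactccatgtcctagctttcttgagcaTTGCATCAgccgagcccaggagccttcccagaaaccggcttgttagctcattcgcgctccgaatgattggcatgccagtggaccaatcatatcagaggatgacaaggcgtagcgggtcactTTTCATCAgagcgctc
Iars, chr13:49681980-49682154, plus strand: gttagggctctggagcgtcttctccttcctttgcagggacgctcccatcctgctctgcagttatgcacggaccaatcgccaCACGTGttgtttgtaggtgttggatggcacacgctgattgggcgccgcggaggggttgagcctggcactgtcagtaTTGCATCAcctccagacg

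Tars, Aars and Iars each held both motifs, and Sars held neither in its window. Farsa is not printed and was not among the genes with either motif, which also holds for every gene without a window. Over the genes with a window, TGATGNAA was found in 3 of 37 translation genes (8.11%), which are these 3 synthetases, against 2.54% of 3227 tested genes and 4.51% of all genes in the table. CACGTG was found in 10 of the 37 (27%), against 11.5% of the tested genes and 8.09% of all genes. The other 7 with CACGTG were Ears2, Eef1aknmt, Eef2, Eif3a, Eif4a1, Eif4e and Eif5a, none of which was called. Of the 2 called synthetases, Tars held both motifs and Sars neither, while Aars and Iars held both and were not called. A start base C followed by 4 pyrimidines, as in terminal oligopyrimidine mRNAs, stood at the listed start of 0 of the 37 genes and of 3.35% of the tested genes. Only the exact listed base was read, so a pyrimidine start a few bases away would be missed. The 0 therefore does not show that these mRNAs lack such a start. All these matches describe letters in the windows and were not tested against expression.

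None of the 7 tested mitochondrial synthetases was called (limma, unadjusted p under 0.05 for 0 higher and 1 lower), and their median change was -0.02 log2 units. Ears2, the mitochondrial glutamyl-tRNA synthetase, stood farthest from 0. It read 8.43 and 8.72 in GFP-positive cells, against 8.96 and 9.01 in GFP-negative cells, a change of -0.41 (SE 0.12, 95% interval -0.70 to -0.11, adjusted p = 0.0948). The groups did not overlap, but replicate 1 minus replicate 2 was -0.30 in GFP-positive cells, against -0.05 in GFP-negative cells. Cars2, for cysteine, had a change of -0.18 (adjusted p = 0.236). Tars2, which serves mitochondria as Tars serves the cytosol, read 8.97 and 9.01 in GFP-positive cells, against 8.95 and 9.07 in GFP-negative cells. Its change of -0.02 had a 95% interval from -0.23 to 0.19, whether it differs from that of Tars was not tested, and Iars2, Mars2 and Vars2 lay between -0.04 and +0.02.

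Of the 8 cap-binding, scaffold and helicase factors of the eIF4 group, 1 rose and 7 were not called. Eif4e3 read 9.64 and 9.69 in GFP-positive cells, against 9.14 and 9.17 in GFP-negative cells. The arrays of each group were within 0.05 of each other and the groups did not overlap, with a rise of 0.51 (SE 0.08, 95% interval 0.31 to 0.70, adjusted p = 0.0165). This was the lowest adjusted p of the 47 genes. A second, dimmer Eif4e3 probe read 8.37 and 8.60 in GFP-positive cells, against 8.39 and 8.37 in GFP-negative cells, a change of +0.11 (adjusted p = 0.569 over all detected probes), and with the mean of both probes the change was 0.31 (adjusted p = 0.0848). With 1 array left out, the adjusted p for Eif4e3 lay between 0.0605 and 0.0704 and the change between 0.48 and 0.54.

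The other cap-binding proteins were not called. Eif4e, the main cap-binding protein, read 8.83 and 8.86 in GFP-positive cells, against 8.91 and 8.68 in GFP-negative cells, a change of +0.05 (95% interval -0.20 to 0.31, adjusted p = 0.805). Eif4e2, a family member known as a repressor at the cap, had +0.20 (adjusted p = 0.328) and +0.18 at its dimmer probe. Eif4g3, a scaffold that links eIF4E to eIF3, had the opposite sign to Eif4e3. It read 10.72 and 10.67 in GFP-positive cells, against 11.01 and 11.04 in GFP-negative cells. The groups did not overlap and each was tight, but the change of -0.33 missed the threshold (SE 0.08, 95% interval -0.52 to -0.13, adjusted p = 0.0575). The helicase Eif4a1 had a change of +0.11, its cofactor Eif4b +0.19 (and +0.31 at a dimmer probe) and Eif4a3, a helicase of the exon junction complex, -0.12.

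Eif4g2, a scaffold related to eIF4G that does not bind eIF4E, had the largest change of the 47 genes and was not called. It read 11.05 and 10.15 in GFP-positive cells, against 10.22 and 9.62 in GFP-negative cells, a change of +0.69 (SE 0.34, 95% interval -0.17 to 1.54, adjusted p = 0.28). Replicate 1 was above replicate 2 in both groups, by 0.90 in GFP-positive and 0.60 in GFP-negative cells, and the second GFP-positive array read lower than the first GFP-negative one.

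The 3 eIF4E-binding proteins, repressors that mTORC1 releases from eIF4E, had no overlap between the groups and no call. Over all features, 55.8% had no overlap. Eif4ebp1 read 11.14 and 11.06 in GFP-positive cells, against 10.91 and 10.84 in GFP-negative cells, a change of +0.23 (95% interval 0.02 to 0.43, adjusted p = 0.154). Eif4ebp2 read 10.78 and 10.83 in GFP-positive cells, against 10.48 and 10.61 in GFP-negative cells, a change of +0.26 (95% interval 0.04 to 0.48, adjusted p = 0.127). Eif4ebp3 went the other way, with 8.60 and 8.62 in GFP-positive cells, against 8.91 and 8.97 in GFP-negative cells. Its change was -0.33 (95% interval -0.53 to -0.14, adjusted p = 0.0554), so 2 members were above 0 and 1 below by similar amounts.

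**Figure D2:**
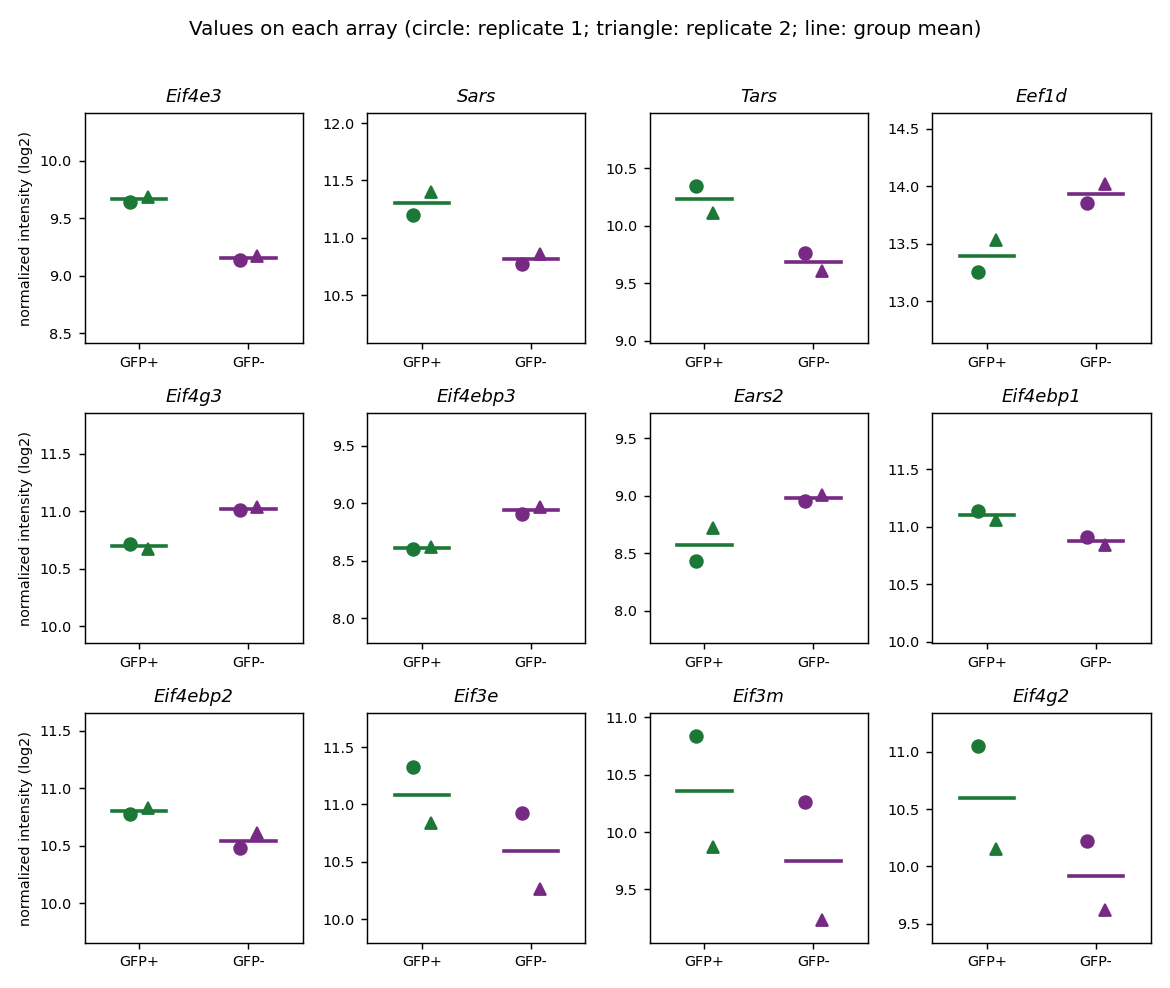
Normalized log2 intensity of 12 translation genes on each array, GFP-positive left and GFP-negative right; circles are replicate 1, triangles replicate 2, lines group means, and every panel spans 2 log2 units. The arrays of a group lie close together for Eif4e3, Eif4g3 and Eif4ebp3 and far apart for Eif3e, Eif3m and Eif4g2.

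None of the 7 tested subunits of eIF3 was called, and none had an unadjusted p under 0.05 in limma, although their median change was +0.29. Eif3m had the largest, with 10.84 and 9.87 in GFP-positive cells, against 10.26 and 9.23 in GFP-negative cells, a change of +0.61 (SE 0.44, 95% interval -0.49 to 1.71, adjusted p = 0.452). Eif3e read 11.33 and 10.84 in GFP-positive cells, against 10.93 and 10.26 in GFP-negative cells, a change of +0.49 (95% interval -0.18 to 1.16, adjusted p = 0.319). In both genes replicate 1 was well above replicate 2 in each group, and the groups overlapped. Eif3h had +0.31 (adjusted p = 0.268) without overlap, and Eif3j1, a loosely bound subunit, +0.29 (adjusted p = 0.444). The core subunits Eif3a and Eif3c, on which the complex is built, had -0.05 (95% interval -0.25 to 0.15) and -0.02 (95% interval -0.41 to 0.37). A dimmer Eif3c probe had +0.33, and Eif3g had +0.10.

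The difference between the arrays of a group was the larger one for many of these genes. For 30 of the 47 genes (63.8%), the arrays of at least 1 group lay further apart than the group means, as for 55.2% of all features. Replicate 1 read above replicate 2 in both groups for 5 of 7 eIF3 subunits and below in both for 0, where 26.4% of all features were above and 30.5% below. For Eif3m this difference was 0.97 in GFP-positive and 1.03 in GFP-negative cells, for Eif3e 0.50 and 0.67, for Eif3j1 0.59 and 0.22, and for Eif3h 0.23 and 0.35. The elongation factors leaned the other way, with replicate 1 below replicate 2 in both groups for 4 of 5. The sample titles number the arrays 1 and 2 in both groups, but the labels do not say whether arrays of the same number share a mouse, culture or sort. Deviations of same-numbered arrays from their group means had a correlation of 0.437 across 15215 features. In a fit with a term for the replicate number, Eif3e, Eif3h, Eif3j1 and Eif3m were called higher. That fit called 26.2% of all features, in either direction, and it assumes pairs that the labels do not state.

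**Figure D3:**
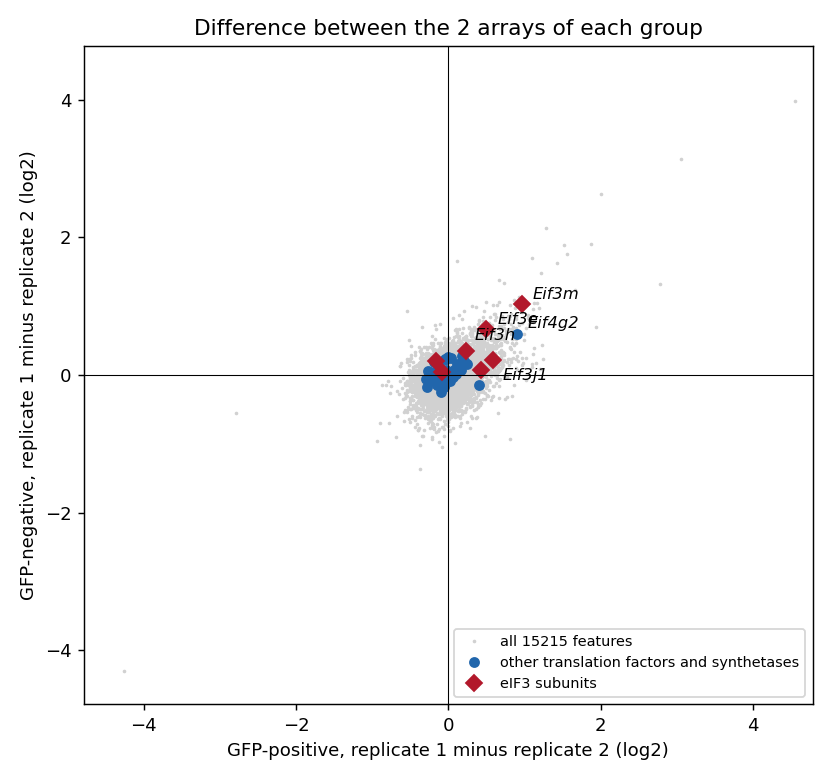
Replicate 1 minus replicate 2 in GFP-positive (horizontal axis) and GFP-negative cells (vertical axis), in log2 units; grey points are all 15215 features, red diamonds eIF3 subunits and blue points the other translation genes. Eif3m, Eif3e and Eif4g2 lie far toward the upper right, where replicate 1 is higher in both groups.

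No gene among the 6 tested factors of the ternary complex and start-codon choice was called (limma, unadjusted p under 0.05 for 1 higher and 1 lower). The eIF2 subunits had little difference: Eif2s2, the beta subunit, had +0.03 (95% interval -0.22 to 0.27), and Eif2s1, the alpha subunit that stress kinases phosphorylate, was at the dim end with +0.01. Eif1, which guards the choice of the start codon, read 14.08 and 14.21 in GFP-positive cells, against 14.46 and 14.33 in GFP-negative cells, a change of -0.25 (95% interval -0.49 to -0.02, adjusted p = 0.158). Eif2d, which can deliver initiator tRNA without eIF2, read 9.72 and 9.50 in GFP-positive cells, against 9.39 and 9.22 in GFP-negative cells. Its groups did not overlap, with a change of +0.31 (95% interval 0.03 to 0.60, adjusted p = 0.158). Eif5, which triggers GTP hydrolysis by eIF2, had +0.05, and Eif1ad, a protein with an eIF1A-like domain, -0.01. The only eIF2 kinase tested, the heme-regulated Eif2ak1, had +0.06 (95% interval -0.19 to 0.31), and no eIF2B subunit was analysed here.

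The 5 tested elongation factors gave 0 calls (limma, unadjusted p under 0.05 for 0 higher and 1 lower), and their median was -0.06. Eef1d, an exchange subunit that recharges eEF1A with GTP, read 13.25 and 13.53 in GFP-positive cells, against 13.85 and 14.02 in GFP-negative cells. The groups did not overlap, and the change of -0.55 was the most negative of the 47 genes but missed the threshold (SE 0.12, 95% interval -0.86 to -0.23, adjusted p = 0.0513). Its partners in the exchange complex were not called: Eef1b2 read between 15.32 and 15.46 with a change of +0.07 (95% interval -0.14 to 0.27), and Eef1g between 15.48 and 15.74 with -0.06 (95% interval -0.33 to 0.22). Whether these changes differ from that of Eef1d was not tested, and both probes read near the top of the scale, where differences may be compressed.

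Eef2, which moves the ribosome along the mRNA, read 15.00 and 15.13 in GFP-positive cells, against 15.24 and 15.31 in GFP-negative cells, a change of -0.21 (95% interval -0.43 to 0.01, adjusted p = 0.207). Its dimmer probes had -0.36 and -0.40, each with 1 GFP-negative array above the other 3, at 13.17 and 12.59. Eef1a1, which carries charged tRNA to the ribosome, had +0.03 (95% interval -0.25 to 0.31) at a probe that read between 8.84 and 9.12. That probe was far dimmer than those used for Eef1b2, Eef1g and Eef2, so its change may say little about the gene. The methyltransferases of elongation factors Eef1aknmt and Eef2kmt had +0.07 and -0.02. Gspt1, the release factor eRF3a and the only release factor tested, read 12.84 and 13.03 in GFP-positive cells, against 12.82 and 12.84 in GFP-negative cells, a change of +0.10 (adjusted p = 0.562). Eif5a, which helps ribosomes through poor sequence contexts, had -0.24 (adjusted p = 0.391) and +0.07 at its dimmer probe, and Eif6, which keeps the large subunit from joining too early, +0.15 (adjusted p = 0.31).

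Other genes of the pathway were counted from lists of the same fit. Over all features that fit called 11.1%, and at an unadjusted p under 0.05 it had 12.1% higher and 14.6% lower. Of 14 genes of synthetase scaffolds and tRNA maturation, 1 fell and 0 rose (7.14% called, below the share of all features). It was Trmt112, a partner of several methyltransferases for tRNA and for the release factor eRF1, with 10.28 and 10.20 in GFP-positive cells, against 10.58 and 10.60 in GFP-negative cells, so that it fell by 0.35 (SE 0.08, adjusted p = 0.0489). With 1 array left out its adjusted p was between 0.117 and 0.2, and the call was also lost with cyclic loess, with detection on all 4 arrays and under an intensity trend with or without robust estimation (adjusted p = 0.0546 to 0.112). Aimp1, a scaffold of the multi-synthetase complex, had +0.05 (adjusted p = 0.818). Of 17 poly(A)-binding, recycling and related factors, 0 were called (limma, unadjusted p under 0.05 for 1 higher and 1 lower), and of 5 mitochondrial translation factors 0 were called, with 0 at an unadjusted p under 0.05.

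Among ATF4 targets only 3 of 31 listed genes could be tested, and 1 rose. Phgdh, which opens serine synthesis, read 9.95 and 10.07 in GFP-positive cells, against 9.60 and 9.52 in GFP-negative cells, a rise of 0.45 (SE 0.09, adjusted p = 0.0324, between 0.0729 and 0.146 with 1 array left out, and 0.0527 under an intensity trend). The 12 genes of mTORC1 and growth signalling had a median change of -0.11. That list holds activators and repressors together, so its median and counts give no direction for the pathway. At an unadjusted p under 0.05 in limma, 2 were higher and 4 lower, where 12.1% and 14.6% of all features were. At the adjusted threshold, 1 rose and 0 fell (8.33% called, beside 11.1% of all features). It was Rps6kb1, an S6 kinase that acts on initiation under mTORC1, with 9.56 and 9.20 in GFP-positive cells, against 8.70 and 8.77 in GFP-negative cells, a rise of 0.65 (SE 0.14, adjusted p = 0.0416). That call was kept without GFP-positive replicate 2 and lost without each of the other arrays (adjusted p = 0.0903 to 0.105) and with no detection filter (adjusted p = 0.0649). Of the genes for the ribosome's own proteins, 1 of 71 cytosolic ribosomal protein genes was higher and 4 lower (7.04% called, median change -0.01), and of 33 mitochondrial ones 1 was higher and 0 lower. The cytosolic ones had a median level of 15.55, near the top of the scale, where differences may be compressed. Their small median change therefore does not show that they were unchanged.

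Where a gene had 2 or more detected probes, as 9 of the 47 did, the probe with the highest mean was used. For Aars, Eef1aknmt, Eif3c and Eif5a the brighter and the dimmer probe had changes of opposite sign, all without a call. The groups did not overlap for 21 of the 47 genes (44.7%), 13 of them higher and 8 lower in GFP-positive cells, against 55.8% of all features, with 24.9% higher and 31% lower. The changes of all features ran from -3.96 to +4.08.

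**Figure D4:**
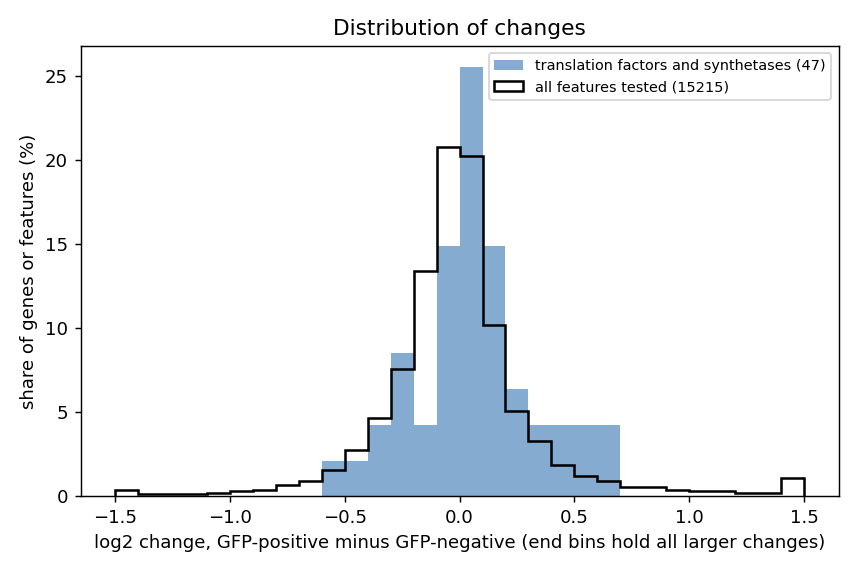
Share of the 47 translation genes (blue) and of all 15215 features (black line) by log2 change, GFP-positive minus GFP-negative, in steps of 0.1; the end bins hold all larger changes. The translation genes lie between -0.55 and +0.69, while all features run from -3.96 to +4.08.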

How the data were processed

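RNA of 2 GFP-positive and 2 GFP-negative sorted B-cell samples was hybridised to single-colour Illumina bead arrays. The deposited normalized log2 intensities were made with lumi, per the submitters' processing notes. Neither its version nor the transformation or background step is stated there, so readings near the dim end cannot be turned into linear ones. The deposited detection p-values, per the file headers, belong to 4 columns that name no sample, so they gave only a number of arrays per probe with a value under 0.05. The 4 unnormalized signal columns match no label and were not used. Precision is limited by having 4 arrays.

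Probes detected on at least 2 of 4 arrays were kept (15787 of 45992). A probe name of scl, 1 or 2 zeros and a number was read as an NCBI Gene ID, and 82.6% of 11868 such probes matched the gene table. For a gene, the probe of highest mean was taken, and unnamed probes were features of their own. GFP-positive minus GFP-negative was fitted over all 15215 features with lmFit and eBayes of limma 3.58.1 (R 4.3.3), two-sided, without a block, with Benjamini-Hochberg adjustment over all features. Unless another setting is named, an adjusted p is from this test, which has 2 residual and 3.40 prior degrees of freedom. The code was run on simulated data with independent noise scaled by the fit's own spread. Such data cannot show how the test behaves where arrays of the same number are alike. The smallest p of an exact permutation test with 2 arrays a group is 0.33. Members, lists and motifs were chosen with earlier results of these data known. Every detected member may be named, except 1 that is counted but not reported here. Of each other list, up to 4 called genes are named, and single genes given beside them (Aimp1), the ribosomal protein genes and the printed promoters were chosen after their values were seen. Lists were described by counts and medians without a test. Alternatives were the replicate block, each array left out, other detection filters, the mean of a gene's probes, cyclic loess, median centring, and an intensity trend with and without robust estimation.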

Additional observations from a re-analysis of the deposited data

How the results depend on the processing

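Median centring hardly changes the values, since every array already had a median of 8.09, so it is no separate check. The 3 genes called higher were called again with it, with cyclic loess, a trend with robust estimation and the filters on 4 arrays or at least 1 array. They numbered 2 without Sars under an intensity trend (adjusted p = 0.055), 2 without Eif4e3 when a gene's probes were averaged (adjusted p = 0.0848), and 2 without Tars with no detection filter (adjusted p = 0.061). None was kept when 1 array was left out (0 to 0 called higher). The count of 0 called lower became 1 with detection on all 4 arrays, 1 with detection on at least 1 array, 1 under an intensity trend and 1 under a trend with robust estimation, in each case Eef1d (adjusted p = 0.0289 to 0.0492). It became 2 with no detection filter, namely Eif4g3 (adjusted p = 0.0337) and Eif4ebp3 (adjusted p = 0.0326). Under a replicate block, 10 translation genes were higher and 4 lower (29.8% of them, where 26.2% of all features were called). Those higher were Sars, Tars, Eif4e3, Eif2d, Eif3e, Eif3h, Eif3j1, Eif3m, Eif4ebp2 and Eif4g2, and those lower Ears2, Eef1d, Eif4ebp3 and Eif4g3. Over all features the block gave 1861 higher and 2125 lower. Deviations of same-numbered arrays had a correlation of 0.437 across 15215 features, but the labels state no pairing and there are only 2 pairs. Leaving out 1 array gave 492 to 618 features higher and 336 to 610 lower, and a median change of the translation genes of 0.03 to 0.09. Tars, Sars, Eif4e3, Trmt112, Phgdh and Rps6kb1 kept the sign of their change under every alternative run. That was fixed in advance for most alternatives, so it is no check of these calls. Their groups did not overlap, so leaving out 1 array could not reverse a sign. The block and the intensity trend leave the change itself as it was. The cause of these shifts was not tested. With 2 arrays a group, the smallest change called over all features was 0.34 log2 units.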
